A study of Rattus norvegicus with 8 samples.

Results

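Platelets are cell fragments without a nucleus that megakaryocytes shed into blood, and they carry mRNA from the parent cell. Their alpha granules hold chemokines that are released on activation, a beta-1 tubulin forms the ring of microtubules that keeps the disc shape, and surface receptors bind collagen, von Willebrand factor, fibrinogen and podoplanin. Platelets and megakaryocytes are also a known source of vesicles in blood plasma. The 10 mRNAs described here stand for these roles: Pf4 and Ppbp (granule chemokines), Tubb1 (beta-1 tubulin), Clec1b and Gp6 (receptors that start activation), Treml1 (a receptor stored in alpha granules), Itga2b, Gp1bb and Gp9 (adhesion receptor subunits) and Nrgn (neurogranin, a calmodulin binding protein best known from neurons that is also carried in platelets). They were chosen by gene name among the 29541 genes of the table, with measured values of these libraries already known, and Pf4 is also among the RNAs that the study listed as higher after exercise. Differences of these 10 between exercised and sedentary rats are therefore given as a description, with no test.

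RNA was sequenced from plasma exosomes (small vesicles that cells release) in 4 libraries from exercised rats and 4 from sedentary rats, all male Sprague Dawley, 9 to 10 weeks old on arrival, to find RNAs whose vesicle content differs with exercise. Exercised rats ran on a treadmill without incline at 20 m/min for 30 min on 5 days a week for 1 month, starting each time with 5 min at 10 m/min, and sedentary rats were kept in the same room during the runs. Neither group had received brain injections, and blood was drawn through heart puncture into lithium heparin tubes no later than 30 min after the final run. Plasma was spun 2 times at 8500 x g, then at 2000 and 10000 x g, before vesicles were precipitated with a kit. Precipitation also brings down other plasma particles, and no platelet count or vesicle sort was given in the sources used here, so more platelet-derived material and more RNA in each such particle cannot be told apart. Values were TPM (read counts divided by gene length and scaled to 1000000 in each library). The libraries held between 10020804 and 22094584 reads in exercised rats and between 17694854 and 31357153 reads in sedentary rats, recovered from the TPM steps. The 10 most abundant RNAs took 98.1 to 99.2% of TPM, which left 64776 to 138860 reads for other genes in exercised and 76358 to 139868 in sedentary libraries. All mRNA values below therefore rest on few reads.

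RefSeq promoters (250 bases before the start, GRCr8, a different build from that of the files) were matched for 9 of the 10 genes, and Pf4 was not matched. GATA1, with partners of the ETS family such as FLI1, is known to drive megakaryocyte genes, so the motifs GATAAG and GGAAG were searched on both strands. GATAAG was found in 4 of the 9 promoters, against 6.07% of all 27457 promoters of the same length. GGAAG was found in 8 of the 9, against 63.3% of all, and 4 of the 9 held both, against 3.88%. The motifs did not overlap in sequence. The following 80-base windows are shown because they are the receptor promoters that hold both motifs, printed along the coding strand with each match in capitals (CTTCC is GGAAG on the other strand).
Clec1b, chr4:164533951-164534030 (+): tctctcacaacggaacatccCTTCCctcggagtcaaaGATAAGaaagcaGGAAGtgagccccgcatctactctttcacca
Itga2b, chr10:87925845-87925924 (-): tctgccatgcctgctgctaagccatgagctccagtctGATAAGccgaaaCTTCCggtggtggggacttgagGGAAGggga
Gp9, chr4:121792746-121792825 (+): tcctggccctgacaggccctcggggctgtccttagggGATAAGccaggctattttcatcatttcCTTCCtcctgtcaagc
Gp6, chr1:78508286-78508365 (+): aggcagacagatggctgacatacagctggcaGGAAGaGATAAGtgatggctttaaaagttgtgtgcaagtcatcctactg
GATAAG lay 54 bases before the start in Itga2b, 59 in Gp9, 121 in Clec1b and 185 in Gp6. A match in these letters is a description of the promoter, and any link to the RNA levels was not tested. Of the 4 genes with it, Clec1b and Itga2b had unlike levels across the libraries, as given below. Gp9 and Gp6 had 2 and 3 reads over all libraries, too few to show a pattern.

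Pf4, platelet factor 4 (ENSRNOG00000028015), is a CXC chemokine of alpha granules that binds heparin. It was the most abundant of the 10 by mean TPM in both groups. Its level was 12.1, 3.31, 6.20 and 5.63 TPM in exercised rats a to d, against 0.679, 1.51, 1.23 and 2.03 TPM in sedentary rats a to d. All 4 exercised libraries were above all 4 sedentary ones, with exercised a standing highest. Its mean was 6.80 ± 3.73 TPM in exercised and 1.36 ± 0.563 TPM in sedentary rats (SD, n = 4 each), a ratio of 4.99. These levels rested on 53, 32, 56 and 51 reads in exercised rats, against 9, 13, 18 and 24 reads in sedentary rats. The ratio lay between 3.70, without exercised a, and 5.97, without sedentary d.

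Because the few dominant RNAs set the TPM scale, the level of Pf4 was also computed on other scales. The ratio of exercised over sedentary means was 3.98 with median-ratio scaling and 3.34 when TPM were rescaled after removal of the 10 most abundant RNAs. As reads per 1000000 reads outside those 10 RNAs, Pf4 had 818, 230, 543 and 592 in exercised rats, against 86.8, 170, 184 and 172 in sedentary rats, a ratio of 3.56. The groups stayed apart on all of these scales, although on TPM scaled again the gap narrowed to 2.48 in the lowest exercised against 2.31 in the highest sedentary library. Ordered by TPM, Pf4 ranked 124, 251, 187 and 167 in exercised rats, against 511, 308, 308 and 290 in sedentary rats. It was the only one of the 10 genes whose mean over the 8 libraries reached 1 TPM. Of the 508 genes that passed this filter, 5.31% were higher in every exercised than in every sedentary library, the same separation that Pf4 was chosen with.

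**Figure D1:**
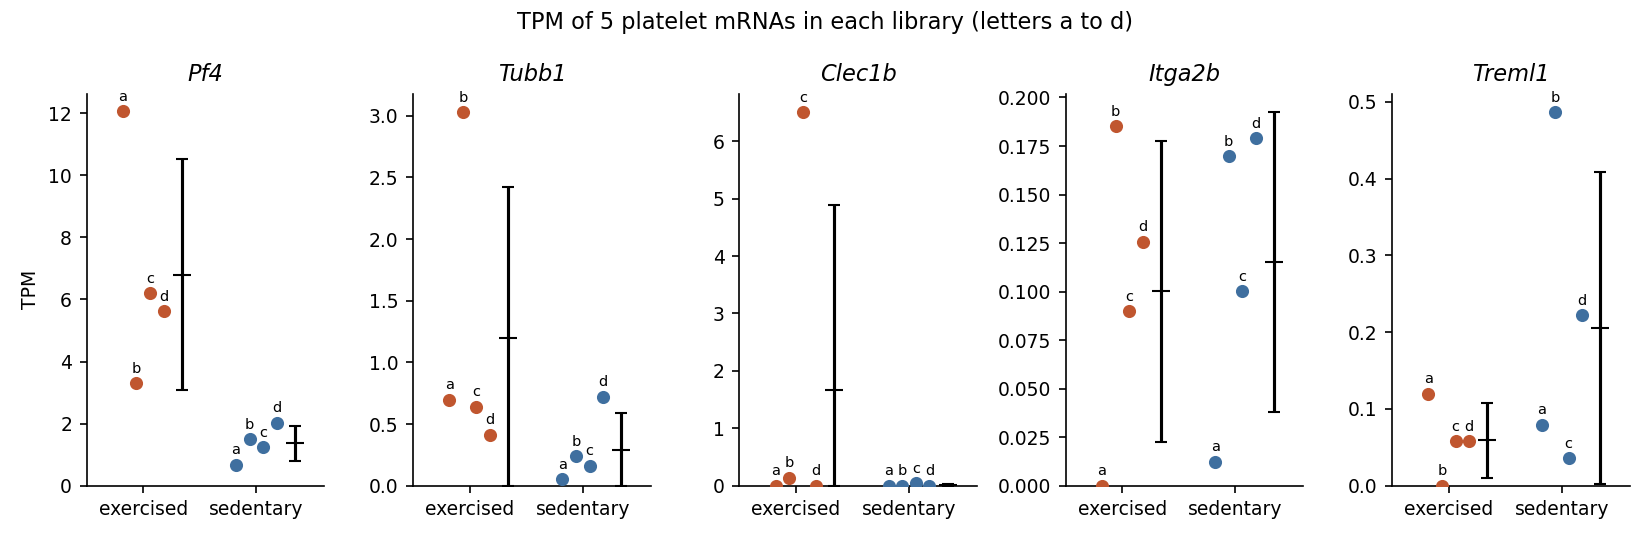
TPM (vertical axis, own scale for each gene) of Pf4, Tubb1, Clec1b, Itga2b and Treml1 in the 4 exercised and 4 sedentary libraries. Points are libraries with their letters, and bars give the mean and SD of each group, cut off at 0. Of these 5, only Pf4 had groups that did not overlap, and Tubb1 was highest in exercised b and Clec1b in exercised c.

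Ppbp, pro-platelet basic protein, is the other abundant chemokine of alpha granules and lies directly beside Pf4 in RefSeq gene order. It was listed at 0 in 7 libraries and at 0.836 TPM in exercised c, on 1 recovered read. This read number is a minimum, since the length fitted to Ppbp was only 88 bases. The neighbouring chemokine Cxcl3 had 1 read, in sedentary b. Neither neighbour was read in more than 1 library. Of 12 further CXC chemokine genes, 7 had any read, and the largest, the stromal chemokine Cxcl12, had 26 reads over all 8 libraries. Cxcl12 was at 0.103, 0, 0.0201 and 0.110 TPM in exercised rats, against 0.0411, 0, 0.00621 and 0.00767 TPM in sedentary rats, so the groups overlapped. Cxcl14 and Cxcl16 had 2 and 4 reads, and Cxcl9, Cxcl11 and Cxcl13 had 3, 1 and 1, all in sedentary libraries.

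Tubb1, the beta-1 tubulin of the platelet's marginal band, was, beside Pf4, the other member with reads in every library. It was at 0.698, 3.03, 0.641 and 0.413 TPM in exercised rats, against 0.0514, 0.237, 0.163 and 0.720 TPM in sedentary rats. The groups overlapped, since sedentary d was above 3 of the 4 exercised libraries. The means were 1.20 ± 1.23 TPM in exercised and 0.293 ± 0.295 TPM in sedentary rats (SD, n = 4 each), a ratio of 4.08 that was 1.99 without exercised b and 7.94 without sedentary d. Exercised b alone held 86 of the 123 exercised reads.

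Among receptors that start activation, Clec1b, which encodes the podoplanin receptor CLEC-2, was at 0, 0.140, 6.51 and 0 TPM in exercised rats, against 0, 0, 0.0463 and 0 TPM in sedentary rats. It came almost entirely from exercised c, which held 87 reads or 96.7% of all reads of the gene. The ratio of read sums per depth was 94.5 with a counting interval of 16.5 to 3775, and the ratio of mean TPM was 4.03 without exercised c, on 2 against 1 reads. Gp6, the collagen receptor glycoprotein VI, had 1 read in exercised d (0.0625 TPM), and 1 read each in sedentary a and d (0.0427 and 0.0479 TPM). No direction can be read from Gp6 at this depth.

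Treml1 encodes TLT-1, a receptor held in alpha granule membranes until activation. Its level was 0.120, 0, 0.0581 and 0.0579 TPM in exercised rats, against 0.0792, 0.487, 0.0360 and 0.222 TPM in sedentary rats. The mean was lower in exercised rats, the opposite of Pf4, and the groups overlapped. The ratio was 0.286, and 0.524 without sedentary b, on 3 exercised and 16 sedentary reads.

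Itga2b, the alpha subunit of the fibrinogen receptor and a defining megakaryocyte gene, was at 0, 0.185, 0.0900 and 0.126 TPM in exercised rats, against 0.0123, 0.170, 0.10 and 0.179 TPM in sedentary rats. The groups spanned nearly the same range, with means of 0.10 ± 0.0775 TPM in exercised and 0.115 ± 0.0771 TPM in sedentary rats (SD, n = 4 each). The ratio was 0.869 and lay between 0.624 and 1.16 when single libraries were left out, and the ratio of read sums per depth was 0.763 with a counting interval of 0.427 to 1.35. Gp9 and Gp1bb encode small subunits of the receptor for von Willebrand factor. Gp9 had 1 read in exercised b (0.0745 TPM) and 1 read in sedentary d (0.0609 TPM), and Gp1bb had 0 reads in all 8 libraries, which allows up to 3 reads each. Nrgn was at 1.21 TPM in exercised c and at 0 in the other exercised libraries, against 0.207, 0, 0.188 and 0.463 TPM in sedentary rats. Recovered Nrgn reads numbered 4 in exercised and 4 in sedentary libraries, which are minima since the fitted length was 243 bases.

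**Figure D2:**
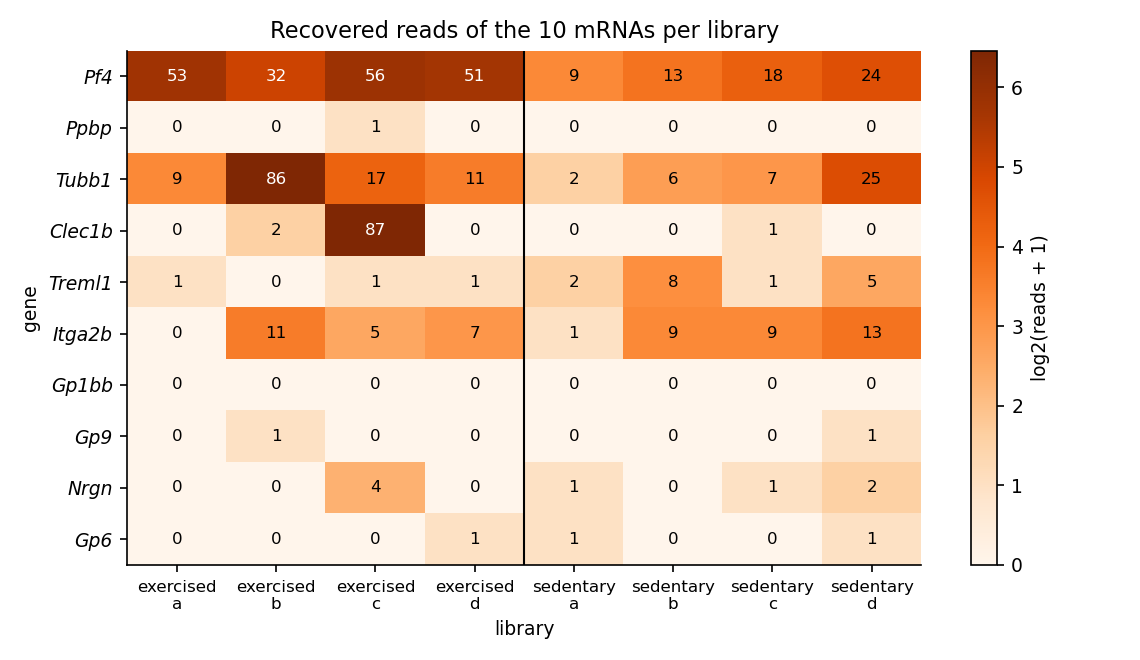
Recovered reads (numbers in the cells, colour on a log2 scale) of the 10 genes, in rows, for exercised libraries a to d and sedentary libraries a to d, in columns. Reads of Clec1b gather in exercised c and of Tubb1 in exercised b, while Pf4 was read 32 to 56 times in exercised and 9 to 24 times in sedentary libraries.

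Summed over the 10 genes, TPM reached 12.9, 6.74, 15.5 and 6.29 in exercised rats, against 1.07, 2.40, 1.77 and 3.72 in sedentary rats. The sums did not overlap, and the ratio of the means was 4.63, with 10.4 ± 4.58 TPM in exercised and 2.24 ± 1.13 TPM in sedentary rats (SD, n = 4 each). Pf4 made up 93.7, 49.1, 39.9 and 89.5% of the sum in exercised rats, against 63.4, 62.8, 69.8 and 54.5% in sedentary rats. The remainder was carried by different genes in different libraries. Without Pf4 the 9 genes summed to 0.817, 3.43, 9.34 and 0.659 TPM in exercised rats, against 0.392, 0.893, 0.533 and 1.69 TPM in sedentary rats, so the groups overlapped. For the 6 receptor genes the ratio of means was 5.0, and for the 5 other than Clec1b it was 0.538, with 0.193 ± 0.0699 TPM in exercised and 0.359 ± 0.265 TPM in sedentary rats (SD, n = 4 each). The direction for receptors thus turned on 1 gene in 1 library. Detection was as uneven as level: Pf4 and Tubb1 were read in 8 of 8 libraries, Itga2b and Treml1 in 7, Nrgn in 4, Clec1b and Gp6 in 3, Gp9 in 2, Ppbp in 1 and Gp1bb in 0.

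Granule chemokines, tubulin and receptors did not move together from library to library. Exercised a was highest for Pf4, exercised b for Tubb1, exercised c for Clec1b and sedentary b for Treml1. For Itga2b, exercised b (0.185 TPM) was barely above sedentary d (0.179 TPM). Exercised b was also highest for Gp9, exercised c for Ppbp and Nrgn and exercised d for Gp6. These rested on 1 to 4 recovered reads, so no order of libraries is read from them. The balance of 2 genes within 1 library does not depend on the TPM scale. Tubb1 took 14.5, 72.9, 23.3 and 17.7% of the reads of Tubb1 and Pf4 in exercised rats a to d, against 18.2, 31.6, 28 and 51.0% in sedentary rats a to d. The exact (Clopper-Pearson) 95% interval of exercised b, 63.9 to 80.7%, lay above those of the other exercised libraries, which spanned 6.86 to 34.6%. That of sedentary d, 36.3 to 65.6%, overlapped the interval of exercised b and lay just above those of the other exercised libraries. Itga2b took 0, 25.6, 8.20 and 12.1% of the reads of Itga2b and Pf4 in exercised rats, against 10, 40.9, 33.3 and 35.1% in sedentary rats. These groups overlapped too, through sedentary a. Intervals cover counting error only, since PCR copies of one molecule could not be told from separate molecules.

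**Figure D3:**
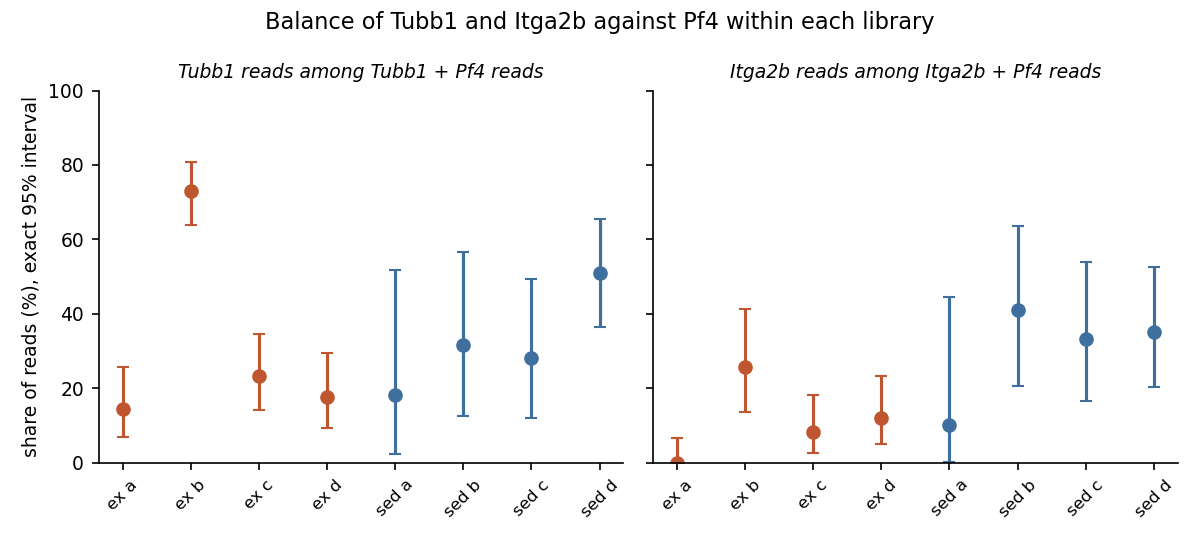
Share of reads (%) from Tubb1 among Tubb1 and Pf4 (left) and from Itga2b among Itga2b and Pf4 (right), for exercised (ex) libraries a to d and sedentary (sed) libraries a to d. Points are shares and bars exact 95% intervals for counting error; exercised b stands at 72.9% for Tubb1, against 14.5 to 23.3% in the other exercised libraries.

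To place these genes among other platelet and megakaryocyte mRNAs, 74 further genes were followed in 5 lists. Of these, 71 had a read and 22 averaged 0.1 TPM or more, a filter at which 3069 genes were tested by limma on log2(TPM + 1); none reached 1 TPM. No gene of these lists passed an adjusted p of 0.05, nor did any of the 3069 (0%) or any of the 508 genes at the higher filter (0%). At an unadjusted p under 0.05, 4 of the 22 were higher and 0 lower in exercised rats, beside 102 higher (3.32%) and 53 lower (1.73%) of all 3069. The count of 4 fell to 2 on TPM rescaled to leave out the 10 most abundant RNAs, beside 50 higher and 121 lower of all 3059 genes. It was 2 without sedentary b, beside 82 higher of all 3069, and 2 without sedentary d, beside 84. Without both sedentary b and exercised a it was 1, beside 91. The median log2 fold change of the 22 was 0.23, beside 0.10 over all genes tested, and 21 of the 22 were above 0, beside 66.9% of all 3069. After scaling without the dominant RNAs these medians were 0.15 and -0.01, with 20 of the 22 and 48.4% of all genes tested above 0. The filter used the mean over all libraries, so a gene could pass through 1 group. Lat (1.17 against 0.0102 TPM) passed through exercised libraries. So did F13a1, Pdgfa, Tgfb1, Timp3, Itgb3, Cd226, Myl9, Syk and Rab27a, whose sedentary means were under 0.1 TPM. Myl9 and Syk are among the 4 genes counted as higher. Of the 22, Nfe2 alone (0.0349 against 0.287 TPM) passed through sedentary libraries. The counts of genes higher or above 0 therefore lean on genes that exercised values let in. Among list genes under the filter, Plcg2 was higher and Mpig6b lower in every exercised than in every sedentary library. They had only 9 and 4 reads over all libraries and were named after their values had been seen. The share over all genes under the filter was not computed, so nothing is read from them. The lists were chosen with earlier results of these data known, so these counts are a description.

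The 4 genes came from the list of signalling and cytoskeleton genes, where 10 of 21 were tested. This list summed to 12.04, 7.12, 7.41 and 6.07 TPM in exercised rats, against 1.12, 1.18, 1.45 and 3.33 TPM in sedentary rats. Tagln2, which encodes the actin binding protein transgelin-2, was at 1.94, 1.23, 1.06 and 0.0752 TPM in exercised rats, against 0.0771, 0.0395, 0.280 and 0.144 TPM in sedentary rats. Exercised d was as low as the sedentary libraries. The log2 fold change was 0.79 (SE 0.292, unadjusted p = 0.0256, adjusted p = 0.740 by limma). Cavin2, a coat protein of caveolae found in platelets as serum deprivation response protein, was at 1.81, 1.48, 0.528 and 0.376 TPM in exercised rats, against 0.0514, 0.211, 0.0778 and 0.307 TPM in sedentary rats. Its groups did not overlap, with a log2 fold change of 0.76 (SE 0.256, unadjusted p = 0.0168, adjusted p = 0.740 by limma). Myl9, the regulatory light chain of nonmuscle myosin, averaged 0.662 ± 0.380 TPM in exercised and 0.0864 ± 0.0802 TPM in sedentary rats (SD, n = 4 each). The kinase Syk, which acts below CLEC-2 and glycoprotein VI, averaged 0.202 ± 0.133 TPM in exercised and 0.0335 ± 0.0292 TPM in sedentary rats (SD, n = 4 each). Cavin2, Myl9 and Syk were named after their values had been seen. Each of the 4 genes missed the adjusted threshold, and on TPM scaled again Myl9 and Cavin2 kept an unadjusted p under 0.05 by limma.

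Other members of that list varied widely between libraries of a group. Fermt3, the integrin activator kindlin-3, was at 1.42, 0.196, 0.60 and 2.51 TPM in exercised rats, against 0.143, 0.0942, 0.445 and 0.252 TPM in sedentary rats, with overlap through exercised b. Myl6, a myosin light chain, was at 0, 1.35, 2.10 and 0.720 TPM in exercised rats, against 0.164, 0.396, 0.0639 and 1.05 TPM in sedentary rats. The adaptor Lat, named after its values had been seen, was carried by a single library, with 38 of its 39 reads in exercised a.

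Among granule cargo genes, 8 of 15 were tested and none had an unadjusted p under 0.05. This list summed to 1.81 to 4.37 TPM in exercised and 0.751 to 1.73 TPM in sedentary rats, a narrow separation. Vwf, von Willebrand factor, which endothelium also makes, was at 0.794, 0.297, 0.159 and 0.121 TPM in exercised rats, against 0.0929, 0.372, 0.361 and 0.289 TPM in sedentary rats. Sparc, the matrix protein osteonectin, was at 0.0511, 0.558, 0.348 and 0.446 TPM in exercised rats, against 0.0848, 0.156, 0.0923 and 0.418 TPM in sedentary rats. Cd63, a tetraspanin of granules and exosomes, was at 1.03 TPM in exercised a and at most 0.0554 TPM in the other exercised libraries, against 0.0379 to 0.255 TPM in sedentary rats. The groups of Vwf, Sparc and Cd63 overlapped. Pdgfa, of the same list and named after its values had been seen, averaged 0.207 against 0.0711 TPM. Its groups were apart, with an unadjusted p of 0.0732 by limma. Among surface receptors 2 of 19 were tested, and the list summed to 0.756 to 1.84 TPM in exercised and 0.426 to 0.872 TPM in sedentary rats. Itgb3, the beta subunit that pairs with Itga2b, was at 0.115, 0.338, 0.0557 and 0.167 TPM in exercised rats, against 0.0570, 0.0583, 0.0862 and 0.0851 TPM in sedentary rats. Cd226, an adhesion receptor also found on lymphocytes, was at 0.196, 0.0595, 0.414 and 0.0952 TPM in exercised rats, against 0.0217, 0, 0.0591 and 0.0243 TPM in sedentary rats, with only a narrow gap between the groups. Cd9, a tetraspanin, was at 0 to 0.333 TPM in exercised and 0.0232 to 0.0952 TPM in sedentary rats.

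Of 10 genes for granule formation and release, Rab27a, a GTPase of secretion, was tested, and the list summed to 0.123 to 1.27 TPM in exercised and 0.259 to 0.394 TPM in sedentary rats. Rab27a was at 0.0556, 0.632, 0.135 and 0.0539 TPM in exercised rats, against 0.0369, 0.0283, 0 and 0 TPM in sedentary rats, apart but with an unadjusted p of 0.119 by limma. Rab27b had reads in exercised b (0.465 TPM) and exercised c (0.124 TPM) and in no sedentary library. Stx11, a syntaxin of platelet secretion, was at 0 to 0.274 TPM in exercised and 0.00891 to 0.227 TPM in sedentary rats. Of 9 megakaryocyte transcription factors, Nfe2 was tested, and the list summed to 0.0876 to 0.724 TPM in exercised and 0.185 to 1.35 TPM in sedentary rats. Nfe2 was at 0, 0, 0.0350 and 0.105 TPM in exercised rats, against 0, 1.10, 0.0217 and 0.0268 TPM in sedentary rats, so its higher sedentary mean came from sedentary b. Zfpm1 and Runx1 stayed at or below 0.232 TPM in every library. At the filter of 0.1 TPM, 7 of the 22 genes were higher in every exercised than in every sedentary library, beside 2.80% of all 3069 genes tested. Of the 7, only Tln1 and Cavin2 also averaged at least 0.1 TPM in sedentary rats. Pdgfa, Cd226, Myl9, Syk and Rab27a passed that filter through exercised values, Rab27a with means of 0.219 against 0.0163 TPM. The count of 7 therefore leans on genes that exercised values let in. The count was 5 with median-ratio scaling and 2 on TPM scaled again. On those scales the share over all genes was not computed, so these counts cannot be set against it.

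**Figure D4:**
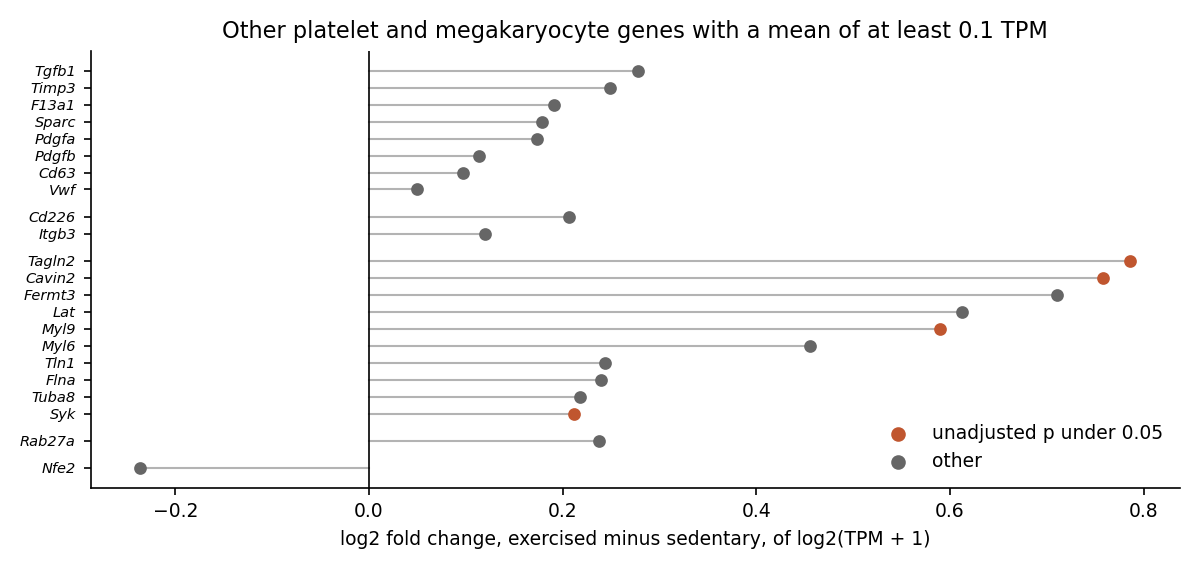
Log2 fold change (exercised minus sedentary, horizontal axis, on the log2(TPM + 1) scale) of the 22 further platelet genes that averaged 0.1 TPM or more, grouped from top to bottom into granule cargo, surface receptors, signalling and cytoskeleton, granule release and transcription factors. Coloured points mark the 4 genes with an unadjusted p under 0.05 by limma. Of the 22, 21 lie above 0, beside 66.9% of all genes tested, and none passed the adjusted threshold. Genes could pass the filter of 0.1 TPM through 1 group alone, and all that did, other than Nfe2, passed through exercised libraries.

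RNA of other blood cells and of liver also differed between libraries, and its part in the platelet values was not tested. Erythroid markers, 9 of 9 with reads, summed to 133, 30.1, 54.7 and 45.9 TPM in exercised rats, against 31.3, 70.4, 15.9 and 9.62 TPM in sedentary rats. The highest erythroid sum and the highest Pf4 level were both in exercised a, where the erythroid enzyme Alas2 was at 8.25 TPM, against at most 0.310 TPM in sedentary rats. Neutrophil markers, 10 of 11 with reads and Elane at 0, summed to 0, 0.165, 56.9 and 83.2 TPM in exercised rats, against 1.05, 0, 6.59 and 6.03 TPM in sedentary rats. The lower pair of exercised neutrophil sums belonged to a and b, where Pf4 was highest and lowest of the exercised group. Liver markers, 13 of 13 with reads, summed to 24.1, 62.5, 1.74 and 0.956 TPM in exercised rats, against 42.3, 17.3, 63.6 and 92.5 TPM in sedentary rats, and by limma 6 of the 12 liver genes tested fell with an unadjusted p under 0.05, none of them past the adjusted threshold. Markers of lymphocytes and monocytes, 10 of 11 with reads and Ms4a1 at 0, stayed at 0.0641 to 0.207 TPM in exercised and 0.104 to 1.33 TPM in sedentary rats. The highest sum, in sedentary b, came mainly from Cd74 (0.635 TPM) and Lyz2 (0.597 TPM). Ptprc went the other way, on 53 reads in all. It was at 0.0648, 0.0883, 0.0997 and 0.0262 TPM in exercised rats, against 0, 0, 0.00650 and 0.0120 TPM in sedentary rats. Endothelial markers, 8 of 8 with reads, summed to 0.208 to 0.626 TPM in exercised and 0.109 to 0.320 TPM in sedentary rats. Neuron markers, which bear on Nrgn, had reads for 5 of 9 and summed to 0.135 to 0.476 TPM in exercised and 0.193 to 0.374 TPM in sedentary rats, with Syt1, Camk2a, Nefl and Stmn2 at 0.

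**Figure D5:**
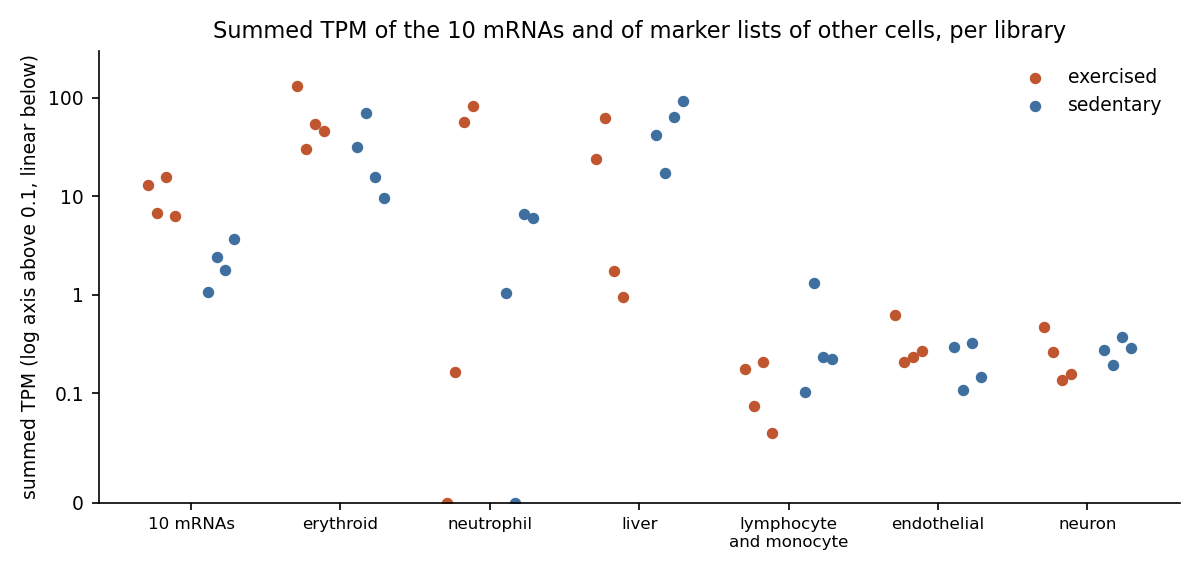
Summed TPM per library (vertical axis, logarithmic above 0.1 and linear below) of the 10 platelet mRNAs and of marker lists of other cells, with exercised libraries left of sedentary ones and each set in the order a to d. The platelet sums of 6.29 to 15.5 TPM in exercised lie above the 1.07 to 3.72 TPM of sedentary libraries, while every other list drawn overlaps between the groups. Pf4, chosen with its values known, made up 39.9 to 93.7% of the exercised sums. Without Pf4 the platelet sums overlap too, with 0.659 TPM in exercised d and 1.69 TPM in sedentary d.

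The genes whose pattern across the 8 libraries was most like the summed platelet TPM, after each group mean was subtracted, were LOC120100150, LOC120101310, LOC120098439, LOC120093324 and LOC120093335. Pearson's r lay between 0.75 and 0.85 among 497 candidates, and between 0.38 and 0.62 with Pf4 alone. All 5 were highest in exercised c, the library that carried Clec1b, and the 8 points share depth and scaling, so r is a description only. The candidates averaged 1 TPM or more, so none of the 74 further platelet genes was among them.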

How the data were processed

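The authors deposited 1 table of TPM for 29541 genes in 8 libraries; libraries had been made with a stranded total RNA kit (1 ng RNA, 10 PCR cycles, depletion of ribosomal cDNA), and the submitters' processing notes name mRatBN7.2, while the names of aligner and counter were not given in the sources used here. Each deposited TPM column summed to 1000000. All 71860 values above 0 were whole multiples of 1 read per gene (tolerance 1e-05 reads), so reads were recovered and scaled with the lengths of 35 microRNA genes, of which 27 lay at the scale. The smallest length that gave whole reads was taken for each gene. For genes with few reads, such as Ppbp and Nrgn, recovered reads may therefore be a fraction of the true number. The tests used limma 3.58.1 in R 4.3.3 on log2(TPM + 1) with trend, on 508 genes that averaged 1 TPM or more and, in an alternative, on 3069 with at least 0.1 TPM, with Benjamini-Hochberg adjustment; a fold change on this scale understates changes of low genes. The recovered reads were tested with voom as an alternative. On simulated data of 508 genes, 184 of 200 genes raised or lowered 8-fold were called, with 5 false calls. The simulation gave all genes 1 fixed spread and all libraries the same depth. Here spread and depth differed, so it does not give the power of the tests on these data. Group and letter came from the sample titles. The labels do not say whether the 4 libraries of a group came from separate rats. The study gives n = 4 for RNA sequencing in its methods and 5 male rats per sequencing group among its limits. The p-values measure the spread between these samples, part of which may be technical.

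The members and lists were chosen with earlier results of these data known. The genes named were the 10 members, CXC chemokines with a read, the 3 genes with the highest mean TPM in each list, and the 5 genes with the most similar pattern. Alternatives were other scalings, a pseudocount of 0.1 TPM, other filters, single libraries left out, and the letter as a block. RefSeq GRCr8 gave promoters and gene order. Figures were drawn with matplotlib 3.10.9.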

Additional observations from a re-analysis of the deposited data

Results flagged for a closer look

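In groups of 4, a library was singled out when its gap to the nearest other library, divided by the range of the group, was above Dixon's 95% critical value; chance alone does this in about 1 in 20 groups, and where the other libraries are at 0 a single read is enough. Clec1b stood out at 6.51 TPM in exercised c (gap 0.979 of the range) and at 0.0463 TPM in sedentary c. Tubb1 stood out at 3.03 TPM in exercised b (gap 0.891 of the range). Nrgn at 1.21 TPM and Ppbp at 0.836 TPM also stood out in exercised c, Gp9 at 0.0745 TPM in exercised b and at 0.0609 TPM in sedentary d, and Gp6 at 0.0625 TPM in exercised d. Of these, Clec1b and Tubb1 in exercised libraries rested on 87 and 86 reads, and the others on at most 4 recovered reads. For Ppbp and Nrgn the true number may be larger.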

How the results depend on the processing

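Depth limits these results: receptor genes other than Clec1b and Itga2b had at most 19 reads over all libraries, and differences in Gp6, Gp9, Gp1bb, Ppbp and Nrgn were not detectable. By limma, 0 genes passed an adjusted p of 0.05 at 1 TPM (43 genes higher, 11 genes lower by unadjusted p under 0.05), and 0 with voom (21 higher and 18 lower); leaving out single libraries gave 0 to 1, the 1 without sedentary a. Same-lettered libraries did not vary together (correlations of -0.26 to 0.00), and the replicate block gave 0 genes past the adjusted threshold and 34 higher and 6 lower unadjusted. Scaling moved the median log2 fold change of all genes tested, which was 0.40 on TPM as deposited, 0.19 with median-ratio scaling, 0.01 with quantile normalization and -0.05 without the 10 most abundant RNAs. The log2 ratio of the summed platelet TPM was 2.21, between 1.95 and 2.57 with single libraries left out, and 1.62 on TPM scaled again. Without Pf4 it was 2.02, on sums that overlapped between the groups. That value was carried by Clec1b in exercised c (6.51 TPM) and Tubb1 in exercised b (3.03 TPM). Alternatives for the 4 further platelet genes with an unadjusted p under 0.05 by limma were chosen after seeing the data. Their count was 2 on TPM scaled again, beside 50 higher among all genes tested. It was 1 without sedentary b and exercised a, beside 91, and 6 with a pseudocount of 0.1 TPM, beside 125. The replicate block gave 3, beside 77, and single libraries left out gave 2 to 6, beside 60 to 162.

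Of 55 named genes, 18 changed sign under at least 1 alternative. In 16 of them the log2 fold change had been at most 0.24 in size, among them 4 of the 10 platelet mRNAs (Itga2b, Gp9, Gp6 and Nrgn, the last at 0.02 and at -0.48 with a pseudocount of 0.1 TPM), Vwf, Cd63 and Nfe2 (-0.24, and 0.03 without sedentary b). The other 2 were Hba-a3 and LOC120100150, which passed the filter of 1 TPM. The log2 fold change of Hba-a3 was 0.26, and -0.050 with median-ratio scaling, -0.37 with quantile normalization, -0.30 on TPM scaled again, -0.17 with voom, -0.08 without exercised d and -0.17 without sedentary d, within a range of -0.17 to 0.93 over single libraries left out. That of LOC120100150 was 0.16, and -0.045, -0.32, -0.26 and -0.30 under the same 4 changes, -0.22 without exercised c and -0.03 without sedentary a, within a range of -0.22 to 0.49. The cause was not tested.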
